A study of Mus musculus with 4 samples.

Results

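Islet endothelial cells, which line the vessels of the pancreatic islet, were selected by their transcripts from 4 droplet libraries of dissociated mouse islets. The rule asked for fewer than 10% mitochondrial unique molecular identifiers (UMIs, 1 for each captured RNA molecule), 1000 to 50000 UMIs and at least 500 genes, and for at least 4 of the 7 gate genes Pecam1, Plvap, Cdh5, Esm1, Kdr, Flt1 and Egfl7. It also asked for 0 UMIs of the leukocyte gene Ptprc and under 5% of UMIs each for insulin (Ins1 and Ins2), Gcg and Sst. It took 927 cells of the 15416 that passed the cell filter, out of 22218 barcodes.

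The islets came from male mice on a C57BL6/N background, wild type (WT) or homozygous for a knock-in missense allele of Pax4 (HH), a transcription factor gene of endocrine development. Mice had a standard chow diet (SCD) and were 12 weeks old, or had a high-fat diet (HFD) for 4 weeks and were 16 weeks old, so age and diet cannot be told apart. Each of the 4 groups was 1 library of the pooled islets of several mice, dissociated with trypsin, so a difference between groups cannot be told apart from one between libraries, and no test was made. Intervals in parentheses are 95% intervals that cover counting error only. They are exact, except for differences of shares, where the exact intervals of both libraries were combined.

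Islet endothelium carries blood to the endocrine cells and depends on the vascular endothelial growth factor (VEGF) that they release, which it reads through Flt1, Kdr and the co-receptor Nrp1. Islet capillaries are densely fenestrated, and Plvap forms the diaphragms across the openings. Capillary, arterial, venous and lymphatic endothelium share genes such as Cdh5 and Pecam1 of the cell junctions and differ in others, such as Vwf, Selp and Ackr1 of venules.

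There were 175, 160, 171 and 421 endothelial cells in the order WT SCD, HH SCD, WT HFD, HH HFD, which is kept in all lists of 4 values. They held 1010446, 824840, 1316069 and 2050550 UMIs, with a median per cell of 5179, 4562.5, 6636 and 4064. The other cells past the filter had medians of 17156 to 22302 UMIs. Pairs of libraries shared 6 to 11 barcode sequences, 0 of them between endothelial cells. Of the 927 cells, 922 held 5 to 7 gate genes and 5 held 4, while 1 cell with 3 met every other condition. The hormone limit cut through a continuous range, since 50 endothelial cells held 4% to 5% insulin UMIs, 27 cells were left out at 5% to 6%, and 186 were left out for hormones in all.

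**Figure D1:**
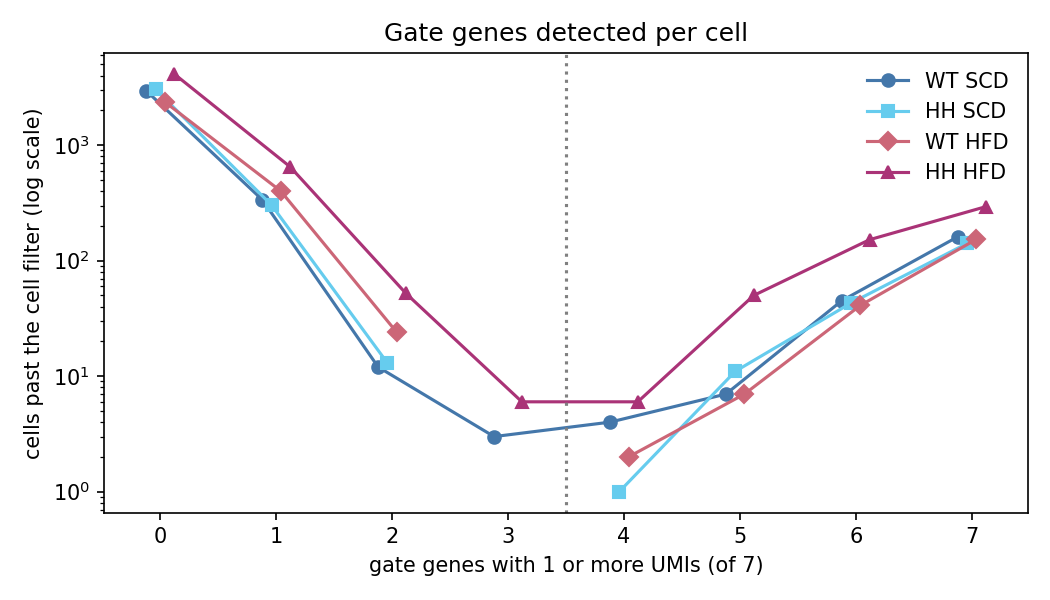
Number of the 7 gate genes with at least 1 UMI (x axis) against the number of cells past the cell filter (y axis, log scale), 1 line per library, with points at 0 cells not drawn. Over all libraries 9 cells held 3 of the genes and 13 held 4, against 748 with all 7, and the dotted line marks the limit of the rule.

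Levels are given in CPM, the UMIs of a gene summed over a library's endothelial cells and scaled to 1e+06 UMIs of all genes. The gate genes chose the cells, so their levels are a description. Plvap was at 4592 CPM in WT SCD and 4818 in HH SCD, and at 5772 CPM in WT HFD and 5898 in HH HFD (chromosome 8, 71497765 to 71511752, GRCm38 as all gene positions here). Esm1, a proteoglycan secreted by VEGF-exposed endothelium (chromosome 13, 113209659 to 113218098), was at 4078 CPM in WT SCD and 4104 in HH SCD, and at 4228 CPM in WT HFD and 2903 in HH HFD. Kdr, the main signalling receptor for VEGF, was at 3237, 3407, 3481 and 2691 CPM, and Flt1 was at 4918, 4663, 4835 and 3922. HH HFD was the lowest library for Esm1, Kdr and Flt1 and the highest for Plvap. Pax4 had 0 UMIs in all 927 cells, a count that still allows a low level, so the genotype could not be checked in these cells.

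Markers of other cells were summed in the same way. The 9 beta cell genes reached 14741 to 20905 CPM, and insulin was 1.93%, 1.37%, 1.47% and 1.45% of the UMIs. Acinar genes summed to 2.42 to 9.88 CPM, ductal genes to 9.12 to 13.7, fibroblast genes to 0.990 to 11.7, macrophage genes to 4.95 to 21.9 and lymphocyte genes to 0 to 31.7. Alpha cell genes summed to 767 to 1347 CPM, delta cell genes to 158 to 401, Schwann cell genes to 0 to 1.52 and mesothelial genes to 0 to 0.990. Pericyte genes summed to 77.2, 70.3, 15.2 and 200.4 CPM, and 1 cell of HH HFD held 207 of the 251 UMIs of the pericyte gene Rgs5. The 4 haemoglobin genes summed to 126, 10568, 6.08 and 2416 CPM. They sat in few cells, with 8715 of 8717 haemoglobin UMIs of HH SCD in 2 cells and 4922 of 4954 of HH HFD in 3. Likewise 1 cell of HH SCD held 2253 of 2564 UMIs of the hormone gene Ppy, and 1 cell of WT HFD held 6010 of 6428.

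The 15 genes with the highest smallest ratio over the other cells of the same library were Clec1a, Emcn, Pcdh17, Cdh5, Sox7, Plvap, Clec14a, Fam167b, Adgrl4, Sox18, Gata2, Irx3, Robo4, Btnl9 and Mmrn2. Emcn, the sialomucin endomucin, was at 3935, 4206, 4228 and 3675 CPM in endothelial cells and at 10.4, 7.95, 7.40 and 10.96 CPM in the others. Clec1a, a C-type lectin, was at 162, 190.3, 290.3 and 341 CPM against 0.411, 0.258, 0.457 and 1.01. Robo4, a Roundabout receptor of vessels, was at 351, 387, 388 and 353 CPM against 0.698, 0.631, 0.723 and 1.18. Among the transcription factors, Sox18 was at 355, 485, 899 and 737 CPM, Sox7 at 262, 238, 99.5 and 79.5 and Gata2 at 91.05, 122, 117 and 90.2. Emcn, Robo4 and Gata2 moved little between the libraries, while Sox7 was lower and Sox18 higher in both HFD libraries than in both SCD libraries.

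Many endothelial genes are regulated by ETS factors, which recognise a GGAA core, so the 250 bases before each start site (RefSeq, GRCm38.p6) were searched on both strands for CCGGAAG and CAGGAAG. A promoter was held for 9 of the 15 genes and 3 of them had a match, against 23.1% of the 2775 promoters held for genes in use (defined with the comparisons) and 16.8% of all 27025. The SOX letters AACAAT were found in 1 of the 9, that of Emcn, against 4.87% for genes in use and 9.65% of all. The GATA letters AGATAA were found in 0 of the 9, against 4.76% and 10.2%. The 3 promoters with an ETS match are shown 5′ to 3′, with the match in capitals as it reads on the gene's strand.
Emcn, chr3:137340828-137341077, plus strand: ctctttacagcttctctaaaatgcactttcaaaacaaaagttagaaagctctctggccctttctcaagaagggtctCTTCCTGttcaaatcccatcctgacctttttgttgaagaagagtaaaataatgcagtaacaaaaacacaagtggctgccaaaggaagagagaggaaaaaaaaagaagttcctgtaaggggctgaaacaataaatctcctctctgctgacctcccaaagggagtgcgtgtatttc
Robo4, chr9:37401722-37401971, plus strand: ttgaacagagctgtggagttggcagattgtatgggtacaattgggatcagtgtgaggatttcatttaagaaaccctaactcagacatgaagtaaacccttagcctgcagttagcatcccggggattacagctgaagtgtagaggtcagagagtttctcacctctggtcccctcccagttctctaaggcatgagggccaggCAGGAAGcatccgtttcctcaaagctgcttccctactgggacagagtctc
Btnl9, chr11:49187090-49187339, minus strand: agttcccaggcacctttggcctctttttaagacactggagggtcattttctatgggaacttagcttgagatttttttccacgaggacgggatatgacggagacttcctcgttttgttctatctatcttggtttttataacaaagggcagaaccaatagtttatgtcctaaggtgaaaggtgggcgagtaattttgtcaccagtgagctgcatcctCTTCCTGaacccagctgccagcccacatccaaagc
The match began 174 bases before the start site of Emcn, 50 before that of Robo4 and 35 before that of Btnl9, a butyrophilin-like gene of capillaries.

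The share of endothelial cells among the cells past the filter was 4.97% in WT SCD (4.28% to 5.74%), 4.50% in HH SCD (3.84% to 5.24%), 5.72% in WT HFD (4.91% to 6.61%) and 7.87% in HH HFD (7.16% to 8.62%). HH minus WT was -0.468 percentage points on SCD (-1.48 to 0.542) and 2.16 points on HFD (1.02 to 3.26). The HFD difference turned to -2.81 points under the narrower cell filter of the study (3000 to 50000 UMIs and 2000 to 5000 genes), which kept 147 endothelial cells of WT HFD (7.23% of cells) and 194 of HH HFD (4.42%). With a hormone limit of 1% in place of 5%, HH minus WT was 0.922 points on SCD and 0.192 on HFD.

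Genes were compared when their mean over the 4 libraries was at least 50 CPM (3484 genes, called genes in use), and a gene was called when its ratio reached 2-fold in either direction. A gene near that minimum can pass it through the libraries where it is high, so calls of such genes and counts over a list are descriptions. Among those with a mean under 50 CPM without their highest library were Ddit3, Tnfaip3, Rel, Aplnr, Ahsa2, Rgs5 and Mgp. Between diets 255 genes (7.32%) were called in WT and 225 (6.46%) in HH. These comparisons share no library, and 140 genes (4.02%) were called in the same direction in both, 32 higher and 108 lower on HFD, against 5 in opposite directions. Between genotypes 22 genes (0.631%) were called on SCD and 24 (0.689%) on HFD, of which 5 (0.144%) in the same direction on both diets.

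**Figure D2:**
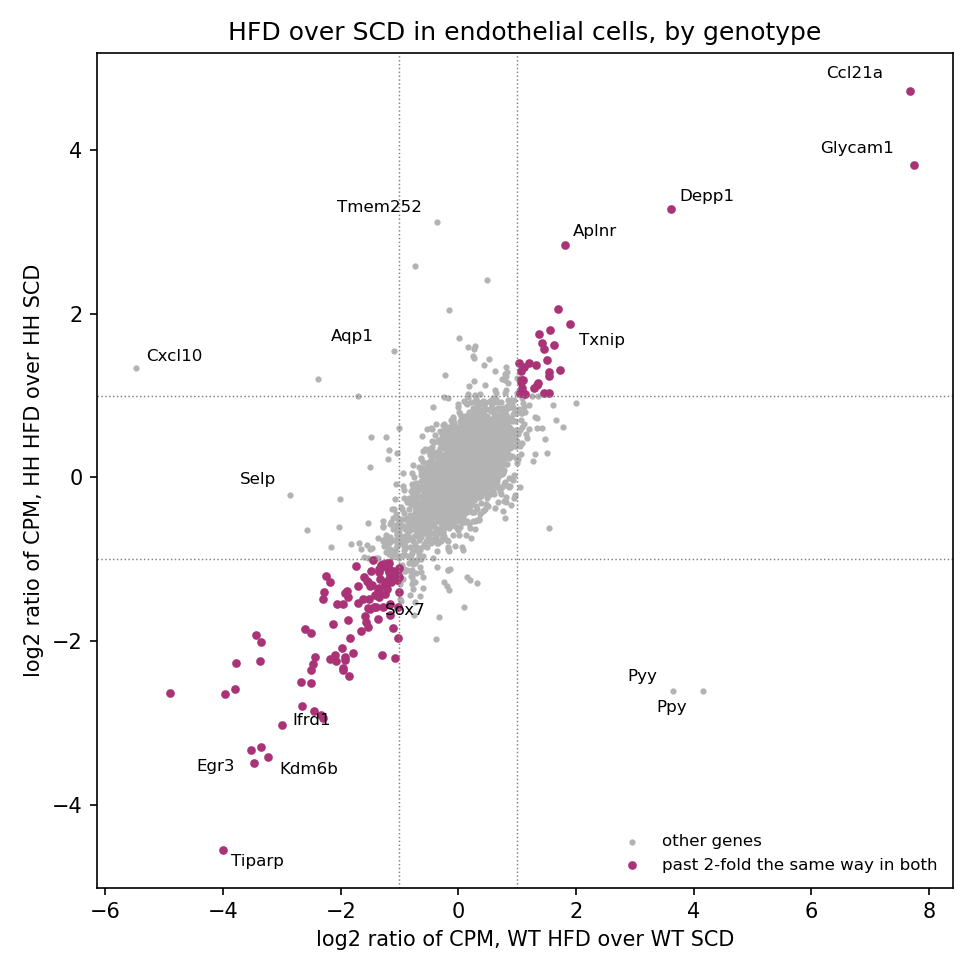
Log2 ratio of CPM of HFD over SCD in WT (x axis) and in HH (y axis), 1 point for each of the 3484 genes in use, with dotted lines at 2-fold. The 140 coloured genes passed 2-fold in the same direction in both genotypes, and Depp1 (3.61 and 3.28) and Tiparp (-3.999 and -4.55) lie far from the centre.

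The genes lowest on HFD by the ranking over both genotypes are given first. Tiparp, an ADP-ribosyltransferase induced through the aryl hydrocarbon receptor (chromosome 3, 65528410 to 65555518), was at 486 CPM in WT SCD and 445 in HH SCD, and at 30.4 CPM in WT HFD and 19.02 in HH HFD. Both HFD libraries lay far below both SCD libraries, with a log2 ratio of -3.999 (-4.502 to -3.53) in WT and -4.55 (-5.06 to -4.07) in HH. After each cell was thinned to 1000 UMIs, Tiparp was detected in 31.4%, 26.9%, 3.51% and 2.38% of endothelial cells, against 7.72%, 7.30%, 4.86% and 3.99% of cells with 0 gate genes.

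Egr3, an early growth response factor, was at 209.8 and 213 CPM on SCD and 18.996 and 19.02 on HFD. Nr4a2, an orphan nuclear receptor, was at 333 and 282 CPM against 32.7 and 28.8, and Kdm6b, a histone demethylase, at 441 and 307 against 47.1 and 28.8. The groups did not overlap for these 3 genes, which largely follows from picking them as lowest on HFD in both genotypes, so nothing is read from it. The same held for Errfi1, an inhibitor of the EGF receptor, at 166 and 137 CPM against 14.4 and 13.7, for Ifrd1 at 747 and 516 against 93.5 and 63.4, and for the ERK phosphatase Dusp5 at 167 and 142 against 26.6 and 20.5. The eighth gene by this ranking, Hba-a1, was a haemoglobin gene from the few cells described above.

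In the list of adhesion and inflammation genes, 8 of 15 were in use. In WT 5 were called lower on HFD (median log2 ratio -1.65), and in HH 1 was called lower and 2 higher (-0.11). The 5 were Tnfaip3, Nfkbia, Icam1, Cxcl10 and Selp, and the 2 were Cxcl10 and Ackr1. Selp came from few cells, and Ackr1 passed the minimum through HH HFD, as given with the genes of venules. Of all genes in use 5.31% were called lower in WT, and in HH 4.51% lower and 1.95% higher, while the median over all genes in use was 0.07 and 0.08. Tnfaip3, which restrains nuclear factor kappa B (NF-kB), was called lower in both genotypes, at 164 and 89.7 CPM on SCD and 15.96 and 19.02 on HFD. Nfkbia, the NF-kB inhibitor, was at 1739 and 1349 CPM against 713 and 789, and Icam1, a leukocyte adhesion receptor, at 253 and 141 against 62.3 and 92.2, both past 2-fold in WT but not in HH, a difference that was not tested. Cxcl10, an interferon-induced chemokine, went in opposite directions, at 136, 48.5, 3.04 and 123 CPM, with 1 cell holding 71 of 137 UMIs in WT SCD, 1 holding 32 of 40 in HH SCD and 1 holding 208 of 252 in HH HFD.

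Rel, an NF-kB subunit noticed after its values were seen, was at 117 and 105 CPM on SCD and 21.3 and 14.6 on HFD. The NF-kB letters (GGG, any 2 bases, TTTCC), searched on both strands, were found in 5 of the 80 promoters held for the 108 lower genes (6.25%), those of Nop58, Arl5b, Tnfaip3, Rel and Dusp5, against 1.44% for genes in use and 1.40% of all. The cyclic AMP response element TGACGTCA was found in 4 of the 80 (5%), against 3.53% for genes in use and 1.62% of all. The promoters of Tnfaip3 and Rel are shown with the match in capitals.
Tnfaip3, chr10:19015411-19015660, minus strand: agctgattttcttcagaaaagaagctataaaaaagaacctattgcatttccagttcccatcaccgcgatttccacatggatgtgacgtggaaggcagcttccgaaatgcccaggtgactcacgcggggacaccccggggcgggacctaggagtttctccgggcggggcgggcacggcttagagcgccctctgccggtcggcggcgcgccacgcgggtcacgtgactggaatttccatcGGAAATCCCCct
Rel, chr11:23770970-23771219, minus strand: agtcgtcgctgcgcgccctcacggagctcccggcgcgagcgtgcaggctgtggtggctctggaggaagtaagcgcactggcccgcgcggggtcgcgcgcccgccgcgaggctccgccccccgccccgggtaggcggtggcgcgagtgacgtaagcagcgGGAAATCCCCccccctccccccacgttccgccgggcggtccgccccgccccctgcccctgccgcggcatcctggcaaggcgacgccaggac
The match began 12 bases before the start site of Tnfaip3 and 91 before that of Rel.

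The 18 dissociation stress genes, which respond to enzymatic digestion of tissue, went both ways between the diets. In WT 4 were called higher on HFD and 3 lower, and in HH 4 higher and 5 lower. Of all genes in use 7.32% and 6.46% were called either way. The list medians were -0.42 and -0.38. The 4 called higher were the same in both genotypes, Jun and the heat shock genes Hspa1a, Hspa1b and Hsph1. Jun, an AP-1 subunit, was at 1007 and 1117 CPM on SCD and 2556 and 2439 on HFD, and Fos at 969.9 and 849 against 1744 and 1632, under 2-fold in both. Fosb, a related subunit, was at 1129 and 898 CPM against 371 and 385, the orphan receptor Nr4a1 at 992 and 934 against 384 and 282, and the survival gene Ier3 at 1420.2 and 1083 against 433 and 373. Jun and Fos were thus higher and Fosb, Nr4a1 and Ier3 lower in both HFD libraries, and the part of digestion in the diet differences was not tested. For HH over WT, 15 of the 18 lay below 0 on SCD and 15 on HFD, against 1817 and 1721 of the 3484 genes in use, with medians of -0.28 and -0.12 and 0 calls.

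The other cells of the libraries were read for the same genes. Over the 108 lower genes the median log2 ratio was -1.56 in WT and -1.55 in HH in endothelial cells, from which they were chosen, and -0.31 and -0.52 in the other cells. There 75 of the 108 were below 0 in both genotypes and 15 were past 2-fold in both, against 1081 (31.03%) and 26 (0.746%) of the 3484 genes in use in the same cells. Over the 32 higher genes the other cells had medians of 0.41 and 0.55, with 21 above 0 and 4 past 2-fold in both, against 1522 (43.7%) and 72 (2.07%) of the genes in use. The median over all genes in use was 0.07 and 0.02 there. Tiparp in the other cells was at 67.9, 65.8, 33.1 and 26.3 CPM.

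Depp1, a small regulator of autophagy induced by FOXO factors (chromosome 6, 116650609 to 116652794), had the largest ratio in each genotype among genes called higher on HFD in both and detected in all 4 libraries. It was at 39.6 CPM in WT SCD and 76.4 in HH SCD, and at 484 CPM in WT HFD and 741 in HH HFD. Both HFD libraries lay above both SCD libraries, with a log2 ratio of 3.61 (3.15 to 4.11) in WT and 3.28 (2.91 to 3.67) in HH. It was detected in 2.29%, 9.38%, 35.7% and 39.7% of endothelial cells at 1000 UMIs, against 5.45%, 5.88%, 2.75% and 3.65% of cells with 0 gate genes. In the other cells it was lower in both HFD libraries than in both SCD libraries, at 56.5, 65.97, 35.1 and 32.6 CPM.

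Txnip, an arrestin that binds thioredoxin and restrains glucose uptake, was at 241 and 234 CPM on SCD and 904 and 859 on HFD. Its log2 ratio was 1.905 (1.705 to 2.11) in WT and 1.88 (1.66 to 2.098) in HH, against 0.82 and 0.51 in the other cells. Aplnr, the apelin receptor, was at 25.7 and 23.03 CPM on SCD and 90.4 and 165 on HFD. Klf2, the shear stress factor of endothelium, was at 534 and 623 CPM against 1564 and 1524. In the other cells its log2 ratio was 2.79 and 0.63. Among 8 shear stress and vasodilator genes in use Klf2 was the 1 call in each genotype, against 7.32% and 6.46% of all genes in use. The list medians were 0.09 in WT and -0.04 in HH. Lipe, hormone-sensitive lipase, was at 35.6 and 33.9 CPM against 92.7 and 114, and Ucp2, a mitochondrial carrier, at 156 and 182 against 391 and 471. For all of Txnip, Aplnr, Klf2, Lipe and Ucp2 the HFD libraries lay above the SCD libraries by 2-fold or more in both genotypes.

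Of 17 genes of fatty acid handling 5 were in use, with medians of 0.56 in WT and 0.85 in HH, against 0.07 and 0.08 over all genes in use, of which 2.01% were called higher in WT and 1.95% in HH. Fabp4, the fatty acid carrier of capillaries, was at 1229 and 931 CPM on SCD and 1766 and 2541 on HFD, called higher in HH alone. Fabp5, a related carrier, was at 77.2 and 143 CPM against 183 and 286, called in WT and just short of 2-fold in HH. The difference between genotypes was not tested for either gene.

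The chaperone genes below were named after their values were seen. Among them Hsph1, Hspa1a, Hspa1b and Dnajb1 are also in the list of dissociation stress genes above, and the part of digestion was not tested. Hsph1 was at 55.4 and 46.1 CPM on SCD and 148 and 143 on HFD, the HSP90 co-chaperone gene Ahsa1 at 40.6 and 41.2 against 125 and 127, its relative Ahsa2 at 29.7 and 23.03 against 95.7 and 95.6, and Stip1 at 56.4 and 64.3 against 186 and 159. Hspa1b was at 138, 72.7, 392 and 198 CPM and Hspa1a at 223, 126, 475 and 257, and since their sequences are nearly identical the split between them is uncertain. Dnajb1, another heat shock gene, was at 276, 202, 171 and 157 CPM and did not reach 2-fold in either genotype. Other chaperone genes did not pass 2-fold in both genotypes either, with log2 ratios in WT and HH of -0.49 and -0.32 for Bag3, 0.85 and 0.87 for Hspd1, 0.96 and 0.83 for Hspe1, 0.65 and 0.95 for Chordc1 and 0.64 and 1.03 for Hspa8.

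The core of the heat shock element, GAANNTTC, was found in 5 of the 31 promoters held for the 32 higher genes (16.1%), those of Jun, Hspb1, Depp1, Hspa1b and Hspa1a. It was found in 4.43% of promoters of genes in use and 6.78% of all. Hspa1a and Hspa1b, the nearly identical pair above, were counted as separate promoters. With Jun, they are also in the list of dissociation stress genes. The promoters of a chaperone and of Depp1 are shown with the match in capitals.
Hspa1b, chr17:34959239-34959488, minus strand: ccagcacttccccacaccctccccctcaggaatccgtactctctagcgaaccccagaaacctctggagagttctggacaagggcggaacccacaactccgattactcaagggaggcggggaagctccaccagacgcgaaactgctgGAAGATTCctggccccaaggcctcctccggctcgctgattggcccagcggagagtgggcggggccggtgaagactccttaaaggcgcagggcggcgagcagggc
Depp1, chr6:116650434-116650683, plus strand: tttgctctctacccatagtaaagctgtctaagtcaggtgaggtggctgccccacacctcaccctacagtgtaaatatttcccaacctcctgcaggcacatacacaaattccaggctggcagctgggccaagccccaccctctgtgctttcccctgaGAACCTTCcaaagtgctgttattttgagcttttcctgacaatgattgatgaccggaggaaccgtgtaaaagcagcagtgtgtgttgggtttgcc
The match began 104 bases before the start site of Hspa1b and 94 before that of Depp1.

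Of 26 genes shared by all endothelium that the rule did not use, 25 were in use, and their median log2 ratio was 0.08 for HH over WT on SCD, -0.03 on HFD, 0.27 for HFD over SCD in WT and 0.19 in HH. Between the diets 2 of the 25 were called in WT and 1 in HH, against 7.32% and 6.46% of all genes in use, namely Sox7, lower on HFD in both genotypes, and Sox18, higher in WT. Receptors and co-receptors of VEGF and angiopoietin with the ligand Angpt2 (8 in use), caveolae and diaphragm genes (8) and basement membrane genes (12) had 0 calls in all 4 comparisons. In lists of that size the background of 0.631% to 7.32% would give few calls, so nothing is read from it. Sparc, a collagen-binding matrix protein, was at 2614, 2913, 3585 and 4787 CPM, and Nrp1 was at 1899, 1814, 1899.6 and 1362, lowest in HH HFD like Kdr.

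Medians of the MHC and interferon lists lay within 2-fold. The 14 genes of MHC presentation in use all lay above 0 for HFD over SCD in WT (median 0.43) and 12 did in HH (0.23), against 56.1% and 57.3% of all genes in use. Of 22 interferon response genes, 13 lay above 0 in WT (0.09), close to the share of all genes, and 21 in HH (0.43). Between the diets the calls were Ifit1 (-1.49) and Isg15 (-1.04), both lower on HFD in WT, against 5.31% of all genes in use called lower. For HH over WT, the interferon list had 1 call lower on SCD (-1.046) and 1 higher on HFD (1.13). The MHC list had 1 call higher on SCD (1.06). Of all genes in use 0.631% were called on SCD and 0.689% on HFD. Ribosomal protein genes lay above 0 in 78 of 81 cases for HH over WT on HFD, against 50.6% of all genes, with a median of 0.18 and 0 calls.

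Of 12 tip cell and sprouting genes in use, 3 were called between the diets in each genotype, against 7.32% of all genes in WT and 6.46% in HH. Plaur, the urokinase receptor, was lower in both genotypes (-1.53 in WT and -1.28 in HH, log2) and Aplnr higher, while Apln was higher in WT (1.55) and Unc5b lower in HH (-1.29). Of 17 genes of the unfolded protein response, 10 lay above 0 in WT and 11 in HH (medians 0.12 and 0.301). The calls were the translation-stress factor Atf4, lower in both (-1.24 and -1.43), and Ddit3, lower in WT (-2.58, and -0.65 in HH). The mTOR inhibitor Ddit4, lower in both (-2.44 and -2.19), was the 1 call among 5 hypoxia genes in use, and the semaphorin Sema3g, higher in both (1.55 and 1.03), the 1 call among 7 arterial genes. Of 7 Notch genes in use 2 were called, both in HH, where the targets Hes1 (-1.52) and Nrarp (-1.68) were lower on HFD, with -0.73 and -0.76 in WT, and the difference between genotypes was not tested. Junction and barrier genes (11 in use) and insulin and IGF receptors (5) had 0 calls, which again is near that background.

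**Figure D3:**
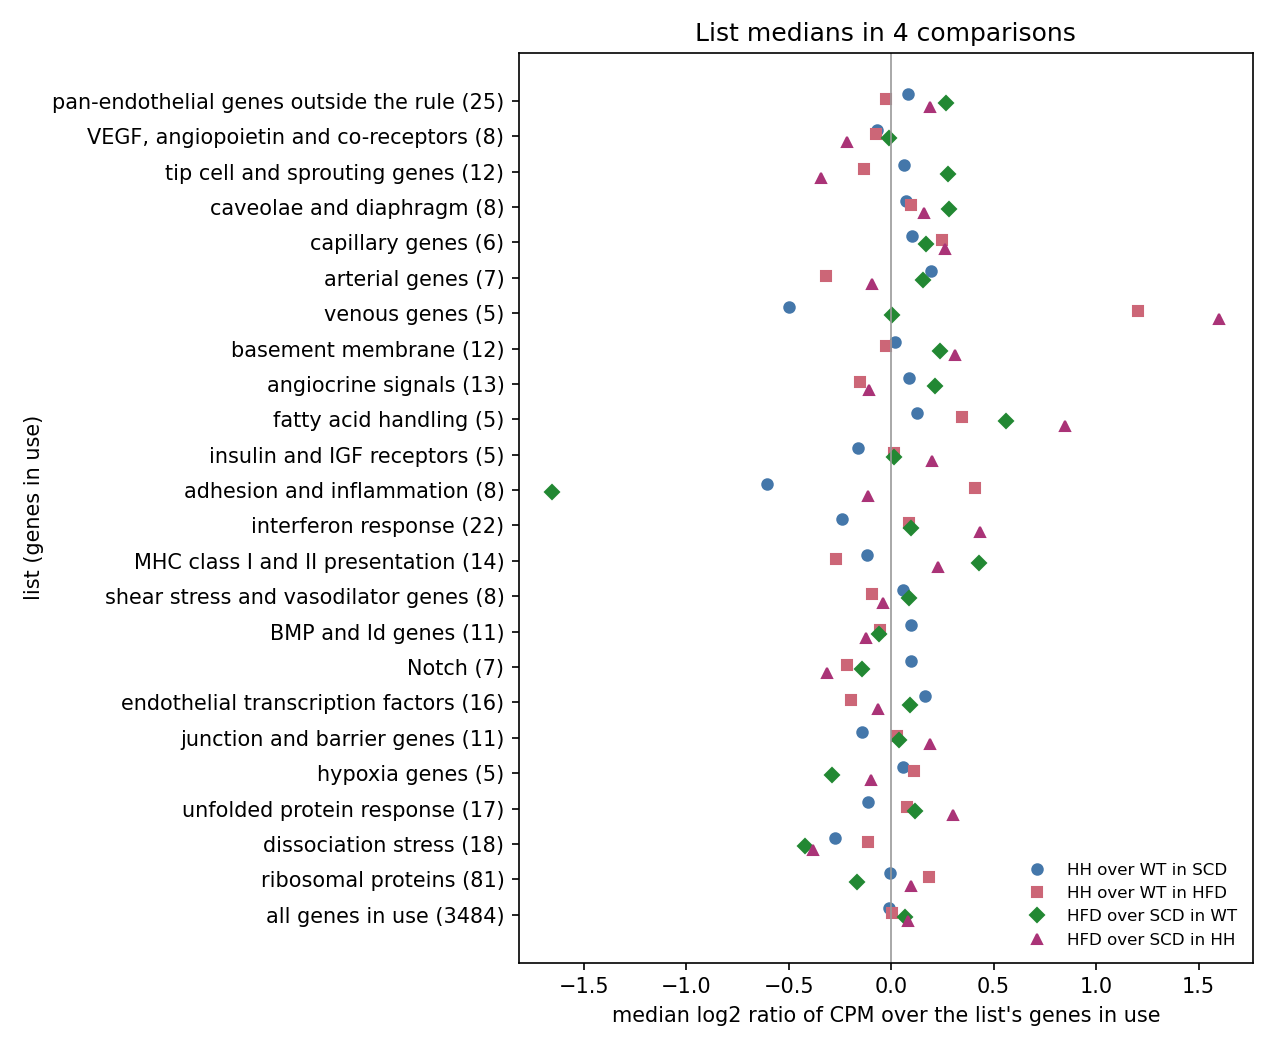
Median log2 ratio of CPM (x axis) over the genes in use of each list with at least 5 of them (y axis, number in parentheses), 1 symbol for each of 4 comparisons. The venous list lies at -0.498 for HH over WT on SCD and at 1.203 on HFD. The adhesion and inflammation list, which shares Selp and Ackr1 with it, lies at -1.65 for HFD over SCD in WT.

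On SCD, the genes called higher in HH were led by 4 haemoglobin genes, Pyy and Ppy, from the few cells described above. Apln, the ligand apelin of sprouting endothelium, came next, at 30.7, 96.99, 89.7 and 63.4 CPM from 17, 22, 18 and 42 cells, with a log2 ratio of HH over WT of 1.66 (1.05 to 2.31) on SCD and -0.500 (-0.87 to -0.13) on HFD. Its HFD ratio ran from -1.46 to 1.19 over the alternatives, the highest with a hormone limit of 1%, where Apln was called higher in HH on both diets. Hspa12b, an endothelial HSP70 relative, was at 28.7, 61.8, 82.1 and 76.1 CPM. WT SCD was the lowest library for Apln and Hspa12b.

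Ddit3, the stress factor CHOP, was called lower in HH on SCD, at 123, 47.3, 20.5 and 30.2 CPM. Its log2 ratio was -1.38 (-1.93 to -0.85). Without WT SCD the mean of Ddit3 was under 50 CPM, so it passed the minimum through the library where it was highest. Interferon-induced Isg15 was at 340.4, 165, 166 and 203 CPM and the GTPase gene Irgm1 at 192, 86.1, 85.1 and 108. WT SCD was the highest library for these 3 genes, and on HFD none of them reached 2-fold between the genotypes.

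Igfbp5, which binds insulin-like growth factors (chromosome 1, 72857932 to 72874884), was the gene called lower in HH on both diets, at 253 CPM in WT SCD and 89.7 in HH SCD, and at 332 CPM in WT HFD and 129 in HH HFD. Both WT libraries lay above both HH libraries, with a log2 ratio of -1.498 (-1.89 to -1.12) on SCD and -1.37 (-1.59 to -1.14) on HFD. Its UMIs came from only 13, 12, 24 and 28 cells, and at 1000 UMIs it was detected in 4.57%, 5%, 8.19% and 4.51% of cells. With a hormone limit of 1%, which kept 23 and 56 cells on SCD, the SCD ratio was 1.34. With every cell weighted equally it was -0.99 on SCD, short of 2-fold, and -1.24 on HFD. The 4 others called alike on both diets were haemoglobin genes, and without the cells that carried haemoglobin or Ppy RNA, a setting added after the data were seen, Igfbp5 and Hspa1b were called alike, both lower in HH. Hspa1b is among the dissociation stress genes, most of which lay below 0 in HH on both diets, and the part of digestion in its ratio was not tested.

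Among genes of venules, Vwf, von Willebrand factor (chromosome 6, 125546774 to 125686679), was at 73.2 CPM in WT SCD and 16.97 in HH SCD, and at 44.1 CPM in WT HFD and 101 in HH HFD, with a log2 ratio of HH over WT of -2.11 (-3.05 to -1.27) on SCD and 1.203 (0.78 to 1.65) on HFD. The adhesion receptor gene Selp was at 294, 124, 40.3 and 107 CPM from 11, 4, 7 and 31 cells, and Ackr1, a chemokine-binding receptor of venules, at 35.6, 30.3, 35.7 and 98.998. Of 8 venous genes 5 were in use, of which 2 were called lower on SCD (median -0.498) and 3 higher on HFD (1.203), against 0.258% of all genes in use called lower on SCD and 0.517% called higher on HFD. Without HH HFD, the means of Vwf and Ackr1 were under 50 CPM, so both passed the minimum through the library where they were highest. In cells with an Esm1 UMI, a setting added after the data were seen that leaves out most venous cells, the log2 ratio of HH over WT on HFD was -1.90 for Vwf and -3.13 for Ackr1. Outside the list, the water channel gene Aqp1 was at 277, 143, 129 and 416 CPM and Tmem252, a transmembrane protein gene, at 69.3, 27.9, 53.9 and 242. HH HFD was the highest library for Vwf, Ackr1, Aqp1 and Tmem252 but not for Selp. Fewer cells of a kind and less RNA per cell cannot be told apart in such sums, so the cells were also counted.

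Cells with at least 3 of the 8 venous genes, a limit set after the values were seen, numbered 12, 6, 12 and 43. Their shares of endothelial cells were 6.86% (3.59% to 11.7%), 3.75% (1.39% to 7.98%), 7.02% (3.68% to 11.9%) and 10.2% (7.49% to 13.5%). At 1000 UMIs and a limit of 2 genes the shares were 6.29%, 3.12%, 4.09% and 9.98%. Cells with 2 of the genes, just under the limit, numbered 8, 6, 15 and 35. The intervals of WT HFD and HH HFD overlapped.

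These cells differed from cells with Esm1 in genes that did not define them. The 4 genes named here were chosen after their values were seen, so their levels are a description. Aqp1 was at 2699, 1541, 1259 and 2235 CPM in them, and at 43.2, 68.1, 11.4 and 82.1 in cells with an Esm1 UMI and fewer than 3 venous genes, named Esm1 cells here. Bgn, the proteoglycan biglycan, was at 508, 268, 239.8 and 379 CPM against 8.18, 2.78, 6.16 and 23.2, and Apoe, a lipid carrier, at 1096, 972, 3148 and 1699.95 against 73.6, 95.9, 87.2 and 150.4. Fbln2, a matrix protein, was at 681, 335, 459.6 and 675 CPM against 25.7, 37.5, 34.3 and 38.97. The 4 genes were higher than in Esm1 cells in every library, although the venous cells of HH SCD numbered 6.

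Of the capillary list, Gpihbp1, which anchors lipoprotein lipase on capillaries, was at 13.4, 101, 49.96 and 115 CPM in venous cells against 873, 911, 851 and 1173 in Esm1 cells. Rgcc, a cell cycle regulator, was at 294, 1407, 889 and 827 CPM against 3059, 3080.3, 3508 and 4294, and Car4, a carbonic anhydrase, at 0, 369, 29.98 and 0 against 401, 472, 431 and 505. These 3 were lower than in Esm1 cells in every library, while Fabp4 of the same list was higher in every library, at 3207, 2379, 3447 and 3025 CPM against 939.6, 695, 1361 and 2120.3. Outside the list, Igfbp3 was at 802, 101, 49.96 and 107 CPM against 2872, 3165, 3436 and 3832, and Nrp1 at 347, 469, 449.6 and 247 against 2072, 1959, 2089 and 1651. Kdr, at 882, 1273, 879 and 489.8 CPM against 3559.6, 3640.3, 3826 and 3328, and Plvap, at 3701, 4724, 4007 and 4182 against 4688, 4942, 5930.2 and 6222, were gate genes, so their levels are a description. Depp1 was low in venous cells of the HFD libraries too, at 40.1, 0, 79.9 and 128 CPM against 42.1, 80.6, 530.1 and 884, while Txnip, at 200.4, 235, 839 and 860.3 against 243, 229, 887 and 841, was not.

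**Figure D4:**
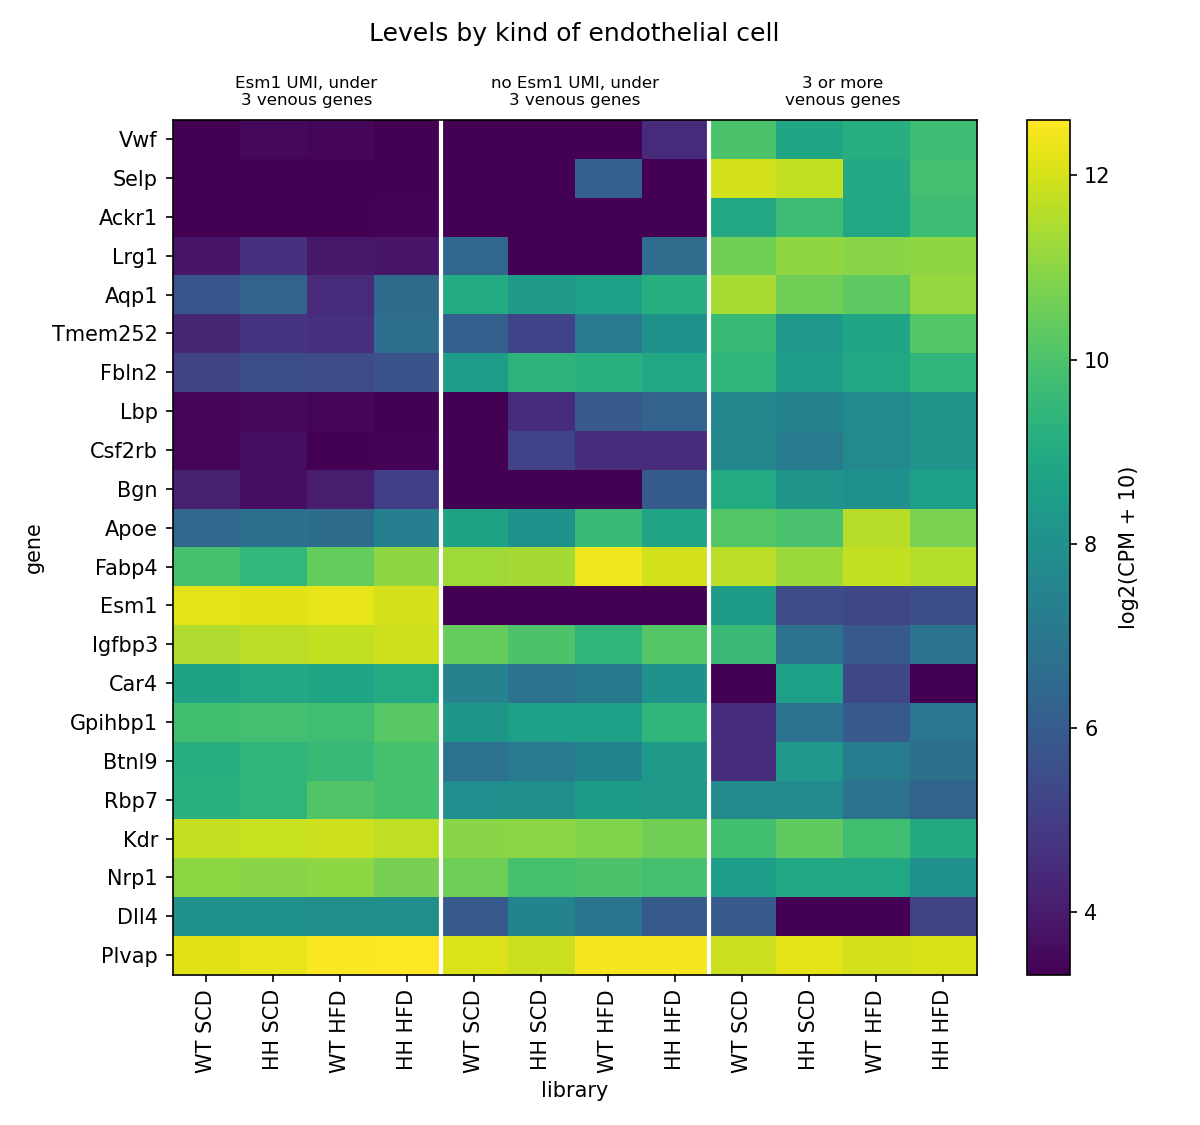
Level of 22 genes (rows) as log2(CPM + 10), shown by colour, in 3 kinds of endothelial cell with 4 libraries each (columns). In every library Aqp1, Bgn and Apoe are highest in cells with 3 or more venous genes (12, 6, 12 and 43 cells), and Igfbp3 and Nrp1 in cells with an Esm1 UMI and fewer than 3 venous genes (146, 138, 144 and 285 cells). Esm1, Kdr and Plvap helped to choose the cells, and Esm1 and the venous genes define the kinds.

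Another kind of cell had neither an Esm1 UMI nor 3 venous genes and numbered 17, 16, 15 and 93, or 9.71% (5.76% to 15.1%), 10% (5.82% to 15.7%), 8.77% (4.99% to 14.1%) and 22.1% (18.2% to 26.4%). The HH HFD interval lay above the other 3. Its cells were shallow, with a median of 3126 UMIs in HH HFD against 4329 in Esm1 cells of that library. At 1000 UMIs for every cell, 25.1%, 21.2%, 29.2% and 41.6% of all endothelial cells had 0 Esm1 UMIs. Fabp4 was at 2478, 2617, 5395 and 3984 CPM in this kind against 939.6, 695, 1361 and 2120.3 in Esm1 cells, and Fbln2 at 363, 624, 584 and 461, which in HH SCD and WT HFD was above the level in venous cells. Esm1 was among the gate genes, so these shares are a description.

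**Figure D5:**
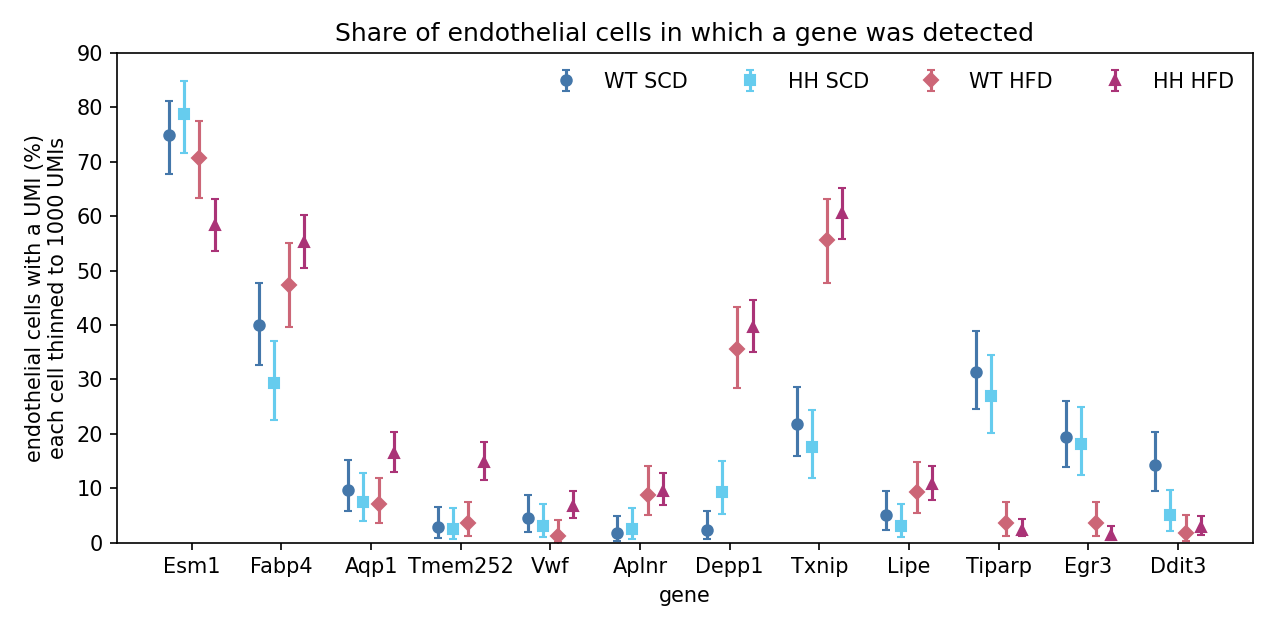
Share of endothelial cells with at least 1 UMI of a gene, each cell thinned to 1000 UMIs (y axis, percent), with exact 95% intervals for counting error, for 12 genes (x axis) and 4 libraries. Depp1 and Txnip were detected in more cells of both HFD libraries, Tiparp and Egr3 in fewer, and HH HFD had the highest share for Tmem252 (14.7%) and the lowest for Esm1 (58.4%).

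Some differences of HH HFD were present in Esm1 cells as well. There Tmem252 was at 9.35, 16.7, 14.1 and 92.3 CPM (chromosome 19, 24674008 to 24682233), Nkx2-3, a homeobox factor gene, at 252, 271, 226 and 126, and Sema5a, a semaphorin gene, at 103, 95.9, 108 and 48.5. HH HFD was the highest library for the first and the lowest for the other two. Over all endothelial cells the log2 ratio of HH over WT on HFD was -1.37 (-1.800 to -0.95) for Sema5a and -0.93 (-1.18 to -0.68) for Nkx2-3, the latter short of 2-fold. Unc5b, a netrin receptor of sprouting vessels, was at 56.4, 87.3, 70.7 and 35.6 CPM, also short of 2-fold on HFD.

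Some calls in HH HFD drew most of their UMIs from 1 cell, among them Rgs5, at 51.5, 53.3, 9.88 and 122 CPM, and Sst, of which 1 cell held 431 of 687 UMIs. Mgp, matrix Gla protein, was at 59.4, 60.6, 18.2 and 121 CPM, with 97 of 248 UMIs of HH HFD in 1 cell.

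Cells with a UMI of the cell cycle genes Mki67 or Top2a numbered 2, 3, 5 and 24. At 1000 UMIs their shares were 1.14% (0.139% to 4.07%), 0.625% (0.0158% to 3.43%), 1.17% (0.142% to 4.16%) and 2.85% (1.48% to 4.93%), and all 4 intervals overlapped. In cells with 0 gate genes the shares at 1000 UMIs were 0.576%, 0.625%, 0.465% and 1.28%, with medians of 17959 to 22362.5 UMIs before thinning. Cells with at least 5 of 12 arterial genes numbered 18, 11, 28 and 34. The intervals of WT HFD, 16.4% (11.16% to 22.8%), and HH HFD, 8.08% (5.66% to 11.10%), did not overlap, in cells of unlike depth. At 1000 UMIs and a limit of 3 genes the shares were 5.71% (2.77% to 10.3%), 5% (2.18% to 9.61%), 8.77% (4.99% to 14.1%) and 5.94% (3.88% to 8.64%), which overlapped.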

How the data were processed

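Single-cell RNA was measured in 4 libraries of mouse islets, 1 per group, by droplet 3′ sequencing. The authors aligned the reads to GRCm38 and counted UMIs with Cell Ranger 6.0 (named in the submitters' processing notes), and the deposited values are raw UMI counts per gene in cells the software kept. The study's own analysis then removed free RNA with SoupX and doublets with DoubletFinder. Neither step was repeated here, and whether the deposited counts precede them is not stated in the sources used here. From these counts, 32285 rows were summed to 32245 symbols. Cells were chosen by the rule in the report, their UMIs summed per library and scaled to CPM, and log2 ratios taken. Intervals were exact Poisson (sums), Clopper-Pearson (shares) and conditional exact (ratios), at 95%. Those of share differences combined the Clopper-Pearson limits of both libraries by root sum of squares. With 1 library per group no test was made.

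Cells were thinned without replacement to 1000 UMIs (seed 1). Genes were named by rule: the 8 highest and 8 lowest ratios of each comparison with intervals apart, the 15 genes highest over other cells, the gate genes and members of 26 lists, with markers of 13 other cell types. The members, lists, motifs and limits for kinds of cell were chosen with earlier results of these data known. Names outside the rule (among them Rel, Stip1, Lipe, Ucp2, Klf2, Aqp1, Nkx2-3, Bgn, Fbln2 and Apoe) were chosen after their values were seen. Scrublet (scanpy) predicted 2 doublets in HH HFD, too few to have worked there, so doublets were removed only in an alternative. Alternatives changed the cell filter, the gate, the hormone limit, the scaling, the weighting and the minimum level, and 3 were added after the data were seen. Ratio code was tested on simulated data. Python 3.11.15, numpy 2.4.6, scipy 1.17.1, pandas 2.3.3, scanpy 1.11.5 and matplotlib 3.10.9 were used.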

Additional observations from a re-analysis of the deposited data

Results flagged for a closer look

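Between the diets, HH over WT went in opposite directions for 6 genes, and the difference between diets was not tested. On the log2 scale Selp was at -1.25 on SCD and 1.41 on HFD, Vwf at -2.11 and 1.203, and Tmem252 at -1.31 and 2.17. Only 4 cells of HH SCD held Selp, and of the Selp UMIs 1 cell held 90 of 297 in WT SCD and 1 held 40 of 102 in HH SCD. The SCD ratio of Selp ran from -5.24 to -0.76 over the alternatives, short of 2-fold with every cell weighted equally. In cells with an Esm1 UMI, Tmem252 was at 0.84 and Cxcl10 at 1.87 on SCD, in the direction of their HFD ratios, and Vwf was at -1.90 on HFD, with no value on SCD. Over all endothelial cells Cxcl10 was at -1.48 and 5.34, with 1 cell holding 71 of 137 UMIs in WT SCD, 1 holding 32 of 40 in HH SCD and 1 holding 208 of 252 in HH HFD. Ppy was at 3.503 and -3.26 and Pyy at 4.03 and -2.23, and both were carried by single cells of HH SCD and WT HFD. The share of endothelial cells, HH minus WT, was -0.468 percentage points on SCD, with an interval that holds 0, and 2.16 points on HFD. The HFD difference was -2.81 points with the study's cell filter, and with a hormone limit of 1% the differences were 0.922 points on SCD and 0.192 on HFD. With 1 library per group these differences cannot be told apart from differences between libraries.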

How the results depend on the processing

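No paired analysis was possible because the labels give no replicate numbers and each group was 1 library. Depp1 kept a log2 ratio of HFD over SCD of 3.29 to 3.75 in WT and 3.21 to 3.58 in HH over the alternatives run, and Tiparp of -4.29 to -3.95 and -4.79 to -4.52. The share of endothelial cells, HH minus WT, moved to 0.922 points on SCD and 0.192 on HFD with a hormone limit of 1%, and to -2.81 on HFD with the study's cell filter. Genes past the threshold for HH over WT on SCD numbered 39 with the study's filter, 169 with the 1% limit, 10 at a minimum of 100 CPM, 127 at 20 CPM and 148 at 1.5-fold. For HH over WT on HFD they numbered 98 with the 1% limit, 15 at 100 CPM, 64 at 20 CPM and 112 at 1.5-fold. For HFD over SCD in WT they numbered 471, 143, 549 and 738 under those 4 settings, and in HH 133, 495 and 697 under the last 3. Genes called alike in both genotypes numbered 90, 235 and 405 under the last 3, and genes called alike on both diets 14 at 1.5-fold and 2 without cells carrying haemoglobin or Ppy RNA.

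Directions turned for the following called log2 ratios. Ratios short of 2-fold are not listed, except Apln for HH over WT on HFD, at 1.19 with the 1% limit. Without the cells carrying haemoglobin or Ppy RNA, Hbb-bs for HFD over SCD was 0.85 in WT and 1.75 in HH, Pyy was 0.28 for HH over WT on HFD and 0.46 for HFD over SCD in HH, and Ppy was 0.41 and 0.15. Without each gene's top cell, Hbb-bs in WT was 0.62, Pyy 0.30 and 0.52, Ppy 0.43 and 0.18, and Rgs5 for HFD over SCD in HH -0.50. With the study's filter Pyy was 1.46 and Ppy 0.69 for HH over WT on HFD, and Rgs5 -0.83. Without predicted doublets Pyy was 1.14 and Ppy 0.65. With every cell weighted equally Rgs5 was -0.76. With the 1% limit Igfbp5 was 1.34 for HH over WT on SCD. In cells with an Esm1 UMI, which leave out most venous cells, Vwf was -1.90 and Ackr1 -3.13 for HH over WT on HFD, Cxcl10 1.87 and Tmem252 0.84 on SCD, and Lrg1 -1.79 for HFD over SCD in HH. Beyond what these settings leave out by construction, the cause was not tested.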

Other observations

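Few cells carried genes of specialised vessels. Glycam1, a mucin-like ligand of high endothelial venules, had 836 UMIs in 2 cells of WT HFD and 105 in 3 cells of HH HFD, and 0 UMIs in both SCD libraries. All 5 of those cells also held a UMI of Fut7 or Chst4, enzymes that modify such ligands. Ccl21a, a chemokine of lymphatic vessels and high endothelial venules, had 797 UMIs in 2 cells of WT HFD, which were the cells with Glycam1, and 197 in 2 cells of HH HFD, both of which held Lyve1. In HH HFD 2 endothelial cells held at least 5 lymphatic genes. Both genes counted among the 32 called higher on HFD in both genotypes.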
